A study of Homo sapiens with 14 samples.

Results

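Regions of open chromatin shared by every library were described in ATAC-seq data from human LHCN myoblasts and RH30 rhabdomyosarcoma cells. The 14 peak lists were cut to the 93488 strongest peaks each, the length of the shortest list, and peaks that overlapped by 1 bp or more in any list were merged into regions. Of 243368 merged regions (hg19), 23583 (9.69%) had a peak in every list, and these are the members described here. The members were thus chosen by measured values, the presence of a peak and its strength in each list, and both are given below as a description without a test.

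ATAC-seq marks open DNA by the insertion of adapters by the Tn5 transposase, and each library was made from 100000 cells. LHCN are human myoblasts immortalised in culture, here with empty vector or with overexpressed PAX3-FOXO1 (72 h), a fusion protein that acts as a transcription factor in alveolar rhabdomyosarcoma. RH30 is a tumour line of that disease with a PAX3-FOXO1 fusion of its own. It was given 0.1% DMSO or the KDM4 histone demethylase inhibitor QC6352 at 200 nM, or transduced for 72 h with the hairpins shCtrl, shKDM4B-813 or shKDM4B-814. All 10 RH30 libraries thus share the fusion of the tumour line, and each line stands for 1 source of cells. Every one of the 7 groups held 2 libraries. The labels do not say whether these were separate cultures, so p-values reflect no more than the spread among these libraries and possibly technical error alone.

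Sites that are open in every cell type are, in general, promoters of genes that all cells use and sites bound by CTCF, an insulator protein that anchors chromatin loops. Cell-type-specific openness is more often found at distal enhancers. PAX3-FOXO1 can bind closed chromatin and open enhancers, while KDM4 enzymes remove repressive methyl marks from histone H3 and can alter how open chromatin is.

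The peak names inside the 6 hairpin lists did not match the sample labels. The lists labelled shCtrl carried names of sh813, those labelled shKDM4B-813 carried names of sh814, and those labelled shKDM4B-814 carried names of shCtrl. The replicate numbers and the names of the other 8 lists matched. Nothing in the sources used here settles which naming is right. Groups are therefore called by their label ("labelled shCtrl" and so on), no direction of a KDM4B knockdown is drawn, and the median shifts and main counts of the hairpin comparisons are also given with the groups set by the peak names. The targeted gene and cell type markers could not be checked, since no annotation of hg19 was used here.

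The deposited lists held 93488 to 176899 peaks. The 4 LHCN lists were all long (170390 to 175594), and the QC6352 replicates differed most in length (111272 and 176899). Read depth is unknown, so strength was read as the rank of a peak within its own list, expressed as a percentile (100 is the strongest peak), and a region took the percentile of its strongest peak. A percentile is relative: a member can shift because other peaks of its list moved.

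A single library held 74120 regions (30.5%), 2 libraries held 37044, 4 held 23911, 11 held 4771, 13 held 5465 and all 14 held the 23583 members. The median width went from 258 bases for regions of 1 library to 738 for those of 13 and 1212 for the members (quartiles 770 and 1845). The members covered 37.5 Mb, against 116 Mb for the other 219785 regions, whose median width was 373 bases. A merged region grows with the number of lists that add a peak to it, so part of this width follows from the rule.

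**Figure D1:**
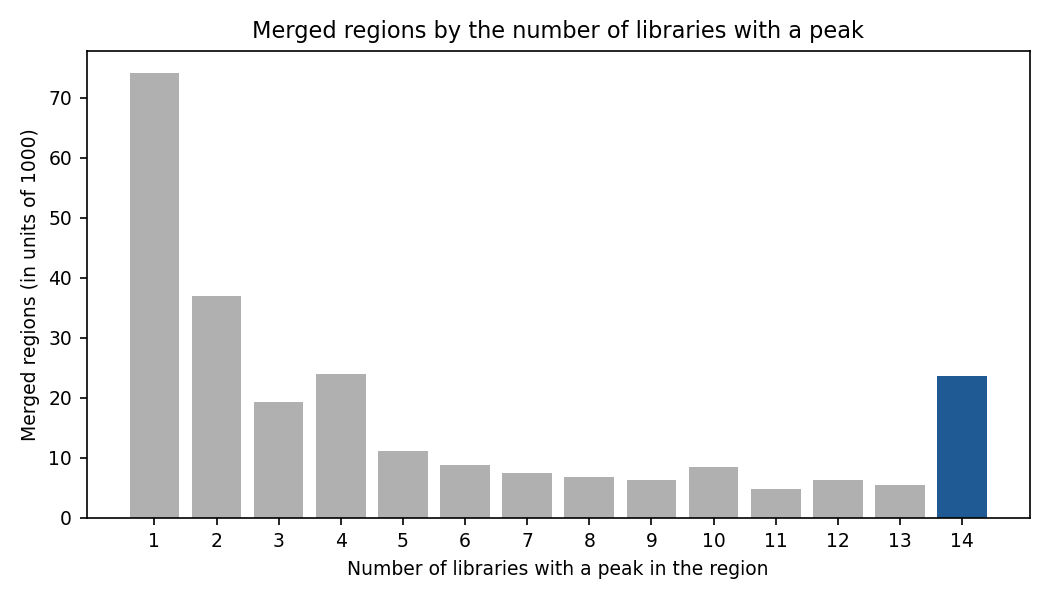
Number of merged regions (y axis, in units of 1000) by the number of libraries with a peak in them (x axis). The bar for all 14 libraries, in blue, holds 23583 regions, more than the bars from 3 libraries to 13 except that for 4 libraries (23911).

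Single peaks of members were wide as well. The median width of the strongest peak per member ran from 501 bases in labelled shCtrl 1 and labelled shKDM4B-814 2 to 861 in DMSO 2. In other regions of the same lists it was 265 to 381 bases. Within the top 25% of each list, the median peak was 1.24 to 1.81 times as wide in members as in other regions. Strength was not matched within that 25%, where members held most of the strongest ranks (given below). Stronger peaks were also wider in both sets, and width at equal strength was not tested. Among the weakest 25% the ratio ran from 0.866 to 1.64, so a greater width was not seen there in every library.

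Members made up most of the strongest sites of every list. They held 72.1% to 82.8% of the top 10% of ranks, although they held only 27.6% to 34.1% of the peaks. The median percentile of the members was 80.9 and 81.4 in the vector libraries, 81.1 and 81.8 with PAX3-FOXO1, 83.8 and 84.1 for the DMSO pair, and 82.7 and 81.4 for the QC6352 pair. It was 81.8 and 81.5 in the libraries labelled shCtrl, 80.8 and 81.0 in labelled shKDM4B-813 and 82.1 and 82.6 in labelled shKDM4B-814. The DMSO libraries had the highest medians of all 14, and the medians of the other groups lay close together. In other regions the medians were 38.5 to 40.8. The authors' fold over background had a median of 10.2 to 41.7 in members and of 5.93 to 16.7 in other regions.

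**Figure D2:**
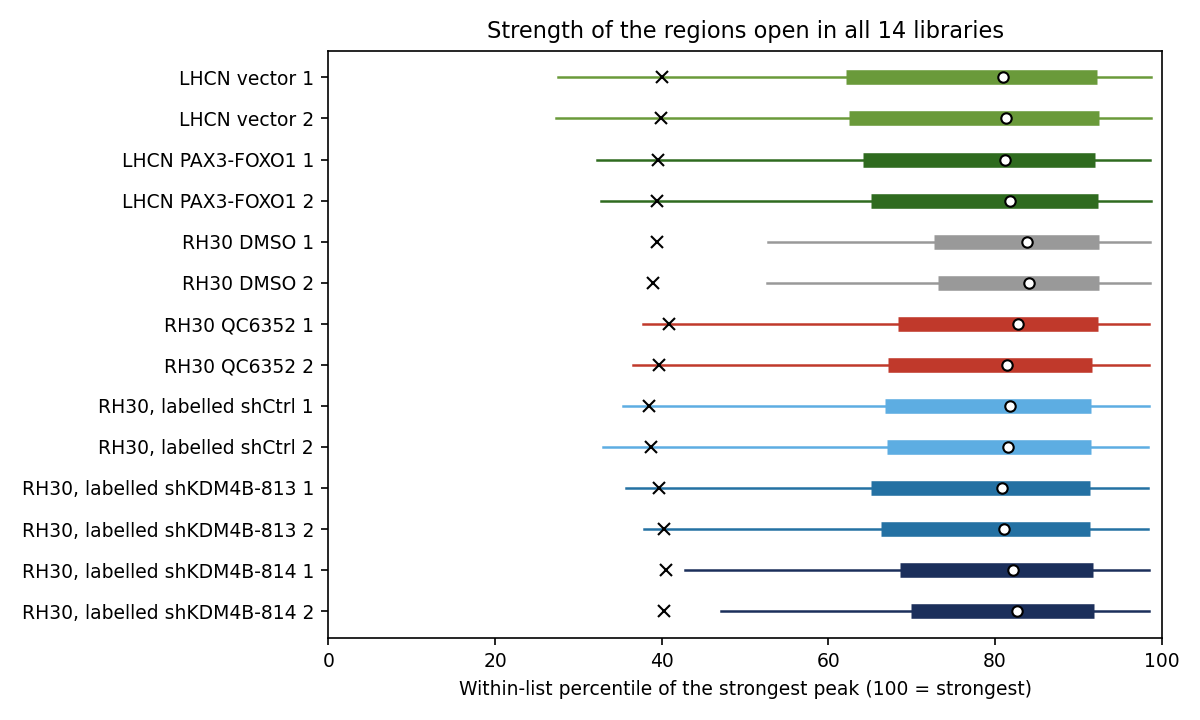
Within-list percentile of the members in each library (x axis, 100 is the strongest peak). Thick bars span the quartiles, thin lines the 5th to the 95th percentile of members, circles mark the median (80.8 to 84.1) and crosses the median of all other regions (38.5 to 40.8). The lower tail was shortest in the DMSO libraries and longest in the vector libraries.

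The weak end of the members differed more between libraries than their median. The 5% of members that were weakest lay below percentile 27.5 and 27.4 in the vector libraries, 32.3 and 32.7 with PAX3-FOXO1, and 52.7 in both DMSO libraries. In QC6352 that point was 37.8 and 36.5, and in the hairpin libraries 32.9 to 47.1. Libraries with DMSO thus held few members of low rank: 0.526% and 0.636% of members lay in their bottom 25%, against 4.26% and 4.27% with vector. The trimmed lists ended at unlike strengths, however. The lowest −log10 q kept was 22.4 and 22.3 with vector but 5.51 and 5.64 with DMSO. A low percentile in a vector list is therefore not the same strength as in a DMSO list.

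Individual members kept their rank to very different degrees. The range of a member's percentile over the 14 libraries had a median of 38.9 points (quartiles 23.1 and 57.7). A range of 5 points or less was found for 508 members (2.15%), which were strong, with a median mean percentile of 98.7, and wide, at a median of 1835 bases. A range of 50 points or more was found for 8063 (34.2%), whose median mean percentile was 66.1 and median width 998 bases. A rank near the top has little room to move, so a small range and a high percentile go together by construction.

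Across lists, 5031 members (21.3%) were in the top 25% of every library and 62 were in the top 1000 of every library. In at least 1 library 4581 members (19.4%) fell into the bottom 25%, and none did so in all 14. The absolute difference between replicates had a median over members of 2.39 points for vector, 2.97 for PAX3-FOXO1, 3.36 for DMSO and 9.64 for QC6352. For the groups labelled shCtrl, shKDM4B-813 and shKDM4B-814 it was 5.41, 4.46 and 4.07. The QC6352 pair thus differed most, which bears on each comparison that uses it.

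The 10 strongest members held nearly the same place in every library. The first, chr2:33141192-33141697, was rank 1 in 12 libraries and rank 3 and 2 in the QC6352 pair, with an authors' fold of 1031 to 6717. The next, chr1:566424-570277, held rank 2 in 13 libraries and rank 3 in QC6352 2, and chr1:121482659-121485487 held ranks 1 to 4. The others were chr19:27731826-27732366, chr1:564358-566207, chr10:42384074-42385754, chr10:42598986-42600257, chr3:196625517-196625828, chr10:42395514-42397253 and chr21:9825656-9826560, whose ranks ran from 4 to 64. The start of chromosome 1 holds a nuclear copy of mitochondrial DNA, and several of the others lie beside centromeres or in satellite repeats. How the authors treated reads with several matches is not given in the sources used here.

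Most members were simple. A single peak in every library was found for 12948 members (54.9%), and 2514 (10.7%) had 2 or more peaks in at least 8 libraries. Members with 2 or more peaks were 8.02% to 8.63% of the total in LHCN libraries and 12.9% to 21.6% in RH30 libraries, so the 2 lines did not overlap. Other regions had 2 or more peaks in 0.844% to 1.13% of cases in LHCN and 2.44% to 9.48% in RH30. In 252 members (1.07%) all 14 libraries listed 2 or more peaks.

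Between replicates the summit of members with 1 peak in both moved by a median of 10 bases with vector, 11 with PAX3-FOXO1, 21 with DMSO and 33 with QC6352, and by 22 to 26 bases in the hairpin groups. In other regions these medians were 12, 14, 29 and 35 bases, and 25 to 44 in the hairpin groups. Members were also stronger. At a mean percentile of 75 or more the medians were 7, 9, 18 and 32 bases in members and 7, 9, 17 and 23 in other regions. In the hairpin groups they were 17 to 22 and 16 to 22 bases. At lower strength the order of members and other regions differed between groups. Over all 14 libraries the summits of the strongest peak spanned a median of 128 bases, with 39.2% of members within 100 bases and 18.5% spread over more than 500. For the members with 1 peak in every library the span was 99 bases, and 51.2% stayed within 100 bases. The median summit position of RH30 differed from that of LHCN by a median of 20 bases.

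The widest members came from 1 stretch of chromosome 12. Of 136 members over 10000 bases, 19 lay between 57000001 and 59000000, led by chr12:57494504-57731581 (237078 bases) and chr12:58055954-58289682 (233729 bases). In the first the lists held 24 to 26 peaks in the LHCN libraries, 48 and 33 in DMSO, 8 and 2 in QC6352 and 24 to 59 in the hairpin libraries. The strongest peak of that region had rank 31 and 35 in QC6352, rank 21 in both DMSO libraries and ranks 25 to 44 in the hairpin libraries.

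The 29 members of that stretch had a median percentile of 66.0 to 78.6 in the 4 LHCN libraries and of 99.3 to 99.9 in the 10 RH30 libraries, with no overlap. Among them chr12:58531845-58612444 stood at 29.1, 35.9, 35.8 and 51.2 in LHCN and at 99.93 to 99.97 in RH30. The stretch includes the locus of CDK4, a cell cycle kinase, which is known to be amplified in some alveolar rhabdomyosarcomas. Copy number was not measured here.

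Away from that stretch, members with many peaks included chr9:137215469-137260816, with 2 to 6 peaks in LHCN and 6 to 39 in RH30. Its percentile was 69.8 to 77.6 in LHCN and 91.0 to 99.7 in RH30. By chromosome, members were 7.19% (chromosome 4) to 11.3% (chromosome 15) of all regions. The nearest member lay a median of 19165 bases away, and 22.6% of members had a neighbour within 5000 bases.

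The mean percentile of the RH30 libraries less that of the LHCN libraries had a median of -0.30 points, with 5% of members below -25.1 and 5% above 39.8. Each of the 10 RH30 libraries lay above all 4 LHCN values in 3231 members (13.7%) and below all of them in 3086 (13.1%). The upper tail was the longer one. No other region has a value in all 14 libraries, so these counts have no background share to be read against. Cell line and separate experiments cannot be told apart here.

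Expression of PAX3-FOXO1 in LHCN asks how the fusion changes sites that are open with or without it. The median percentile of the members was 80.9 and 81.4 with vector and 81.1 and 81.8 with PAX3-FOXO1, so the libraries of both groups overlapped. The shift per member (mean with PAX3-FOXO1 less mean with vector) had a median of -0.68 points, a sign opposite to the small gain in the library medians. Its distribution was skewed: 5% of members lay below -17.2 and 5% above 29.6. Shifts of 20 points or more upward were found in 2030 members (8.61%, against 9.84% of all regions tested) and downward in 791 (3.35%, against 12.1%).

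By limma across all 65359 regions with a peak in all 4 LHCN libraries (Benjamini-Hochberg adjusted p under 0.05), 3714 members rose (15.7%, against 13.1% of all regions tested) and 3056 fell (13%, against 16.3%). Members thus had more rises than falls, while all tested regions had more falls than rises. Members also needed a peak in every list of RH30, a line with the fusion, so this contrast is partly set by the rule. The other members did not pass. Complete loss could not occur among members, since the rule demands a peak in every list. The number of falls depended on single libraries: it was far lower without vector 1 or vector 2 and higher without PAX3-FOXO1 2. In the last case falls outnumbered rises, as they did with a replicate block (4549 against 4494). The median shift was -0.24 without PAX3-FOXO1 1 and -1.08 with lists of the 50000 strongest peaks, which left 1851 rises and 1716 falls. No share over all regions is given for the block or for those lists.

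Among the members that rose, chr9:87992327-87993282 changed most. Its percentile was 3.25 and 2.84 with vector and 96.7 and 96.3 with PAX3-FOXO1, a shift of 93.5 ± 6.18 points (SE, limma adjusted p = 0.000934). The authors' fold there was 9.82 and 9.75 with vector and 49.3 and 61.2 with the fusion. In the 10 RH30 libraries it stood at 89.0 to 99.0 (median 93.2), all far above the vector libraries.

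The next was chr8:109683297-109684488, at 10.3 and 11.8 with vector, 98.6 and 97.9 with PAX3-FOXO1 and 61.1 to 94.1 in RH30. In chr16:56374919-56376760 the values were 7.41 and 11.2 with vector and 94.99 and 94.1 with PAX3-FOXO1. In RH30 that region stood at 97.4 and 96.5 with DMSO, at 33.9 and 74.99 under QC6352 and 95.4 to 99.5 in the hairpin libraries, so the QC6352 pair lay below all 8 others. A like order was seen at chr20:21140619-21141176, with 7.17 and 11.0 for vector, 94.5 and 92.4 for PAX3-FOXO1, 99.5 and 99.3 for DMSO and 46.4 and 90.8 for QC6352. The last, chr9:92857642-92858575, had 16.2 and 7.56 with vector, 97.7 and 95.5 with the fusion, and 64.96 and 72.4 with QC6352 against 85.2 to 96.5 in the other RH30 libraries. In the first 2 of these 5 regions the QC6352 pair did not lie below the DMSO pair.

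Of the members that fell, chr1:110502309-110503291 led, with 71.0 and 72.6 for vector and 0.572 and 4.38 for PAX3-FOXO1. Its shift was -69.3 ± 6.83 points (SE, limma adjusted p = 0.00100). RH30 libraries ranged there from 28.1 to 75.9 with a median of 62.5, above both fusion libraries of LHCN. The next, chr17:15280322-15281528, had 67.1 and 72.3 with vector, 1.28 and 9.93 with PAX3-FOXO1 and 80.6 to 94.6 in RH30. The others were chr11:125039833-125041004, chr7:72847857-72851536 and chr2:151267320-151267742, with shifts of -59.9, -59.2 and -58.2 points. In chr11:125039833-125041004 the fusion pair differed widely, at 1.92 and 31.6.

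QC6352 against DMSO in RH30 asks how inhibition of KDM4 enzymes changes these sites. The median percentile of the members was 83.8 and 84.1 with DMSO and 82.7 and 81.4 with QC6352, lower in both treated libraries, and the groups did not overlap. With 2 against 2 libraries, here and in each comparison below, the exact two-sided permutation test allows no p below 0.333. The shift per member had a median of -2.40 points (5% below -30.2, 5% above 19.1), against -1.36 over all 44955 regions tested. It was -1.15 without QC6352 2 and -4.03 with lists of 50000 peaks.

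No member passed limma at an adjusted p of 0.05 (background 0%), where the lowest adjusted p was 0.159. At an unadjusted p under 0.05 there were 4154 members (17.6%, against 18.7% of all regions). On the log2 rank scale 248 members rose (1.05%, against 1.46%) and 390 fell (background 1.64%). A shift of 10 points or more with no overlap of the groups was found in 2539 members upward (10.8%, against 17.7%) and 4909 downward (20.8%, against 21%), so the downward share was that of the background. The count of 0 depended on the setting. Leaving out QC6352 1 or QC6352 2 gave calls in both directions, and leaving out DMSO 1 or DMSO 2 gave rises alone. In each case the lone library was assumed to vary like the other pair. A replicate block gave 42 rises and 75 falls. No share over all regions is given for these fits.

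The 2539 members that stood higher with QC6352 were at a median of 67.2 and 66.7 with DMSO and 87.3 and 86.5 with QC6352. In libraries that did not choose them they stood at 71.4 to 72.5 in LHCN and 68.8 to 78.2 in the hairpin libraries. The 4909 that stood lower went from 85.6 and 85.5 to 62.7 and 65.4, with 78.6 to 83.0 in the hairpin libraries. Members picked for a low value in DMSO or in QC6352 tend to stand higher in any other library. The place of the other libraries is thus partly set by the choice, also for the single regions below. Both sets were narrower (median 958 and 1001 bases) than the 16135 members in neither (1336 bases). Weak members had larger shifts (given below) and were narrower. With members cut into 5 equal groups by strength, the median width was 957 bases in the weakest and 1571 in the strongest. Width at equal strength was not compared for these sets.

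On chromosome 17, chr17:69437193-69437721 had the largest upward shift with QC6352. It stood at 21.2 and 10.1 in DMSO, 94.6 and 95.3 in QC6352, 19.1 and 11.4 in labelled shCtrl, 90.2 and 90.8 in labelled shKDM4B-813 and 72.5 and 65.1 in labelled shKDM4B-814. DMSO and labelled shCtrl were thus low and the other RH30 groups higher, and LHCN was high in all 4 libraries (79.1 to 92.5). The region was picked for its gap between DMSO and QC6352, so that part of the split was set by the choice. It was also among the leading rises of labelled shKDM4B-813 against labelled shCtrl. The shift with QC6352 was 79.3 ± 11.3 points (SE, limma adjusted p = 0.159). A neighbour, chr17:69419977-69420824, also rose with QC6352, with 36.9 and 19.4 for DMSO and 99.3 and 98.1 for QC6352. Labelled shCtrl was not low there, at 67.4 and 43.1, both above the DMSO pair. In LHCN the neighbour stood at 19.2 and 20.3 with vector and 89.6 and 91.1 with PAX3-FOXO1. The other leading members upward were chr14:37242269-37243113, chr17:48737166-48739945 and chr21:31028825-31029540, with shifts of 69.8 to 74.8 points.

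Downward, chr13:37643415-37645476 had percentiles of 93.0 and 87.5 in DMSO and of 6.47 and 1.96 in QC6352. The authors' fold there was 26.2 and 19.3 with DMSO and 4.73 and 4.75 with QC6352. All other libraries of both lines had 84.9 to 96.1, so the QC6352 pair alone was low. At chr3:123492328-123493294 the values were 95.4 and 95.3 against 20.9 and 6.31, and at chr16:50230543-50231024 they were 88.9 and 91.3 against 5.47 and 11.7. The remaining 2, chr2:32650658-32651232 and chr22:38032135-38033719, had shifts of -79.2 and -74.8 points with QC6352 values of 0.599 and 25.7 and of 2.40 and 27.1. None of these passed the adjusted test (limma adjusted p = 0.159 for each).

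The hairpin lists ask the same of KDM4B, within the conflict of names given above. Against labelled shCtrl, the shift per member had a median of -0.60 points in labelled shKDM4B-813 and of 0.59 in labelled shKDM4B-814. The library medians were 81.8 and 81.5 in labelled shCtrl, 80.8 and 81.0 in labelled shKDM4B-813 and 82.1 and 82.6 in labelled shKDM4B-814, which do not overlap, and both comparisons share the same control pair. The first shift was -0.22 without labelled shKDM4B-813 1 and -1.17 with 50000 peaks. The second was 0.19 and 0.16 without labelled shCtrl 1 and 2, and 1.03 without labelled shKDM4B-814 1. With groups set by the peak names the same lists gave -0.59 for sh813 and -1.17 for sh814 against shCtrl.

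Limma called 0 members in either comparison (background 0%), with lowest adjusted p values of 0.0822 and 0.224. At an unadjusted p under 0.05 there were 5377 members in labelled shKDM4B-813 (22.8%, against 25.6% of 39059 regions) and 2944 in labelled shKDM4B-814 (12.5%, against 16.3% of 41596). The count of 0 for labelled shKDM4B-813 depended on the control pair: without labelled shCtrl 1 or 2 there were calls, nearly all of them rises. With a replicate block there were 1210 rises and 787 falls. Labelled shKDM4B-814 had rises without labelled shCtrl 1. No share over all regions is given for these settings. The lone library was assumed to vary like the other pair. On the log2 rank scale labelled shKDM4B-813 had 1783 rises (7.56%, against 8.01%) and 1324 falls (5.61%, against 7.93%). Labelled shKDM4B-814 had 164 rises (0.695%, against 0.81%) and 58 falls (0.246%, against 0.856%).

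Such a shift of 10 points or more without overlap was found for 3413 members higher (14.5%, against 16.6%) and 3911 lower (16.6%, against 21.3%) in labelled shKDM4B-813. For labelled shKDM4B-814 it was 3113 higher (13.2%, against 14.4%) and 1920 lower (8.14%, against 15.4%). Every one of these shares was below its background. With groups by the peak names, sh814 against shCtrl had 4499 members at an unadjusted p under 0.05 (19.1%, against 19.7%), 1744 members higher (7.4%, against 14.7%) and 3547 lower (15%, against 17.4%), and on the log2 rank scale 827 rises (background 5.2%) and 1027 falls (background 4.05%). For sh813 against shCtrl the 3113 and 1920 of labelled shKDM4B-814 change places.

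The 3113 members higher in labelled shKDM4B-814 stood at 57.9 and 55.9 in labelled shCtrl, against 75.5 and 74.1 in DMSO, 73.2 and 78.3 in QC6352 and 77.2 and 75.2 in labelled shKDM4B-813, libraries that did not choose them. Members picked for a low labelled shCtrl value tend to stand higher in any other library, so this order is partly set by the choice, as it is for the single regions that follow. At chr7:116293197-116293718 labelled shCtrl had 24.8 and 2.90, and the other 8 RH30 libraries had 82.4 to 93.6. At chr5:59388410-59388877 it had 12.4 and 4.27, against 35.8 to 94.4 in the other 8. In chr6:69735370-69736911 the pair had 25.4 and 17.9, against 99.2 and 99.6 in labelled shKDM4B-813 and 94.3 and 79.8 in labelled shKDM4B-814.

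The 1920 members lower in labelled shKDM4B-814 stood at 59.5 and 62.2 there, against 78.7 and 79.1 in labelled shCtrl. In libraries that did not choose them they had 60.4 and 65.3 (labelled shKDM4B-813), 71.7 and 74.6 (DMSO) and 81.9 and 69.8 (QC6352). These members were picked for low values in labelled shKDM4B-814, so this order too is partly set by the choice. In chr8:128903577-128904425 labelled shKDM4B-813 stood at 20.5 and 1.00, against 78.0 and 86.4 in labelled shCtrl and 81.6 and 78.4 in labelled shKDM4B-814. In chr7:97912403-97916097 labelled shKDM4B-814 stood at 3.91 and 7.55, against 76.1 and 70.6 in labelled shCtrl, with QC6352 1 (9.31) and labelled shKDM4B-813 1 (14.3) low as well. The other leading members of both comparisons had shifts of 63.9 to 75.2 points upward, and downward from -58.1 to -67.1 points.

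Set against DMSO, labelled shCtrl had members at 81.8 and 81.5, against 83.8 and 84.1, with no overlap and a median shift per member of -2.16 points (-1.03 over all regions). Limma called 0 members (background 0%, lowest adjusted p 0.116), with 4996 at an unadjusted p under 0.05 (21.2%, against 21.6% of 41868 regions) and 497 rises and 1233 falls on the log2 rank scale (2.11% and 5.23%, against 3.88% and 4.06%). Calls without labelled shCtrl 1 were nearly all falls, those without DMSO 1 or 2 were all rises, and a replicate block gave 355 rises and 656 falls. No share over all regions is given for these settings. A shift of 10 points or more without overlap was found for 1611 members higher (6.83%, against 14.7%) and 4798 lower (20.3%, against 19.1%). With the list that the peak names call shCtrl, the median shift was -1.49 points, with 6029 members at an unadjusted p under 0.05 (25.6%, against 21.5%), 1946 members higher (8.25%, against 14.3%) and 3958 lower (16.8%, against 17.8%), and 1114 rises and 1496 falls on the log2 rank scale (background 4.76% and 4.18%). QC6352 and both versions of the control hairpin were all set against the same DMSO pair, which had the highest member medians.

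**Figure D3:**
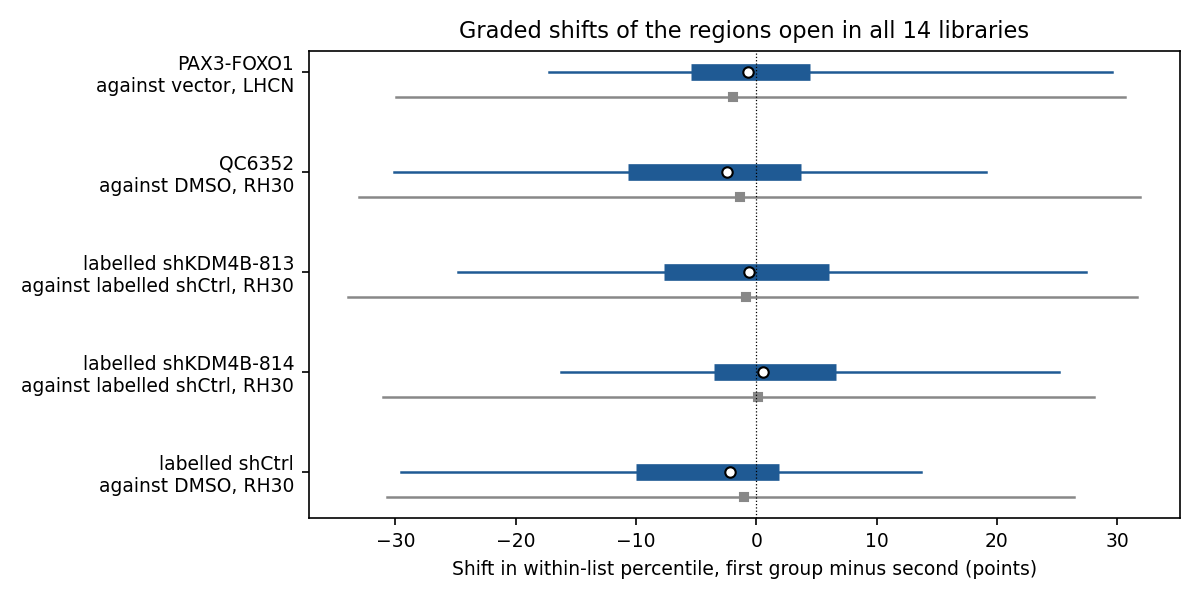
Shift in within-list percentile (x axis, points, mean of the first group less mean of the second) for 5 comparisons. Blue bars span the quartiles of the members, thin blue lines their 5th to 95th percentile and circles their median. Grey lines and squares show the same outer range and the median for all regions with a peak in the 4 libraries. The medians of members ran from -2.40 (QC6352 against DMSO) to 0.59 points.

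The size of a shift depended on strength in each comparison. Members were cut into 5 groups of equal size by their mean percentile. In the weakest group (24.96 to 65.1) the median absolute shift was 10.1 points with PAX3-FOXO1, 12.6 with QC6352, 15.8 and 12.8 in labelled shKDM4B-813 and labelled shKDM4B-814, and 13.6 for labelled shCtrl against DMSO. In the strongest group (89.8 to 100) these were 1.66, 2.98, 1.86, 1.22 and 1.66. The mean difference between replicates fell in step, from a median of 10.6 to 1.39 points.

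Members sorted by their shift in LHCN were then read in RH30. The RH30 libraries took no part in the sorting, but the rule demanded a peak in each of them. The 3703 members higher with PAX3-FOXO1 by 10 points or more without overlap (15.7%, against 17.9% of all regions) stood at a median of 49.96 and 48.3 with vector and 78.2 and 76.3 with the fusion. In RH30 they stood at 83.6 and 82.5 in DMSO, 74.7 and 81.3 in QC6352 and 83.3 to 86.5 in the hairpin libraries, all above the vector level. For 3072 of them (83.0%) the RH30 mean was nearer to the fusion level than to the vector level. These members were narrow, at a median of 835 bases, but width was not compared at equal strength.

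The 2917 members lower with PAX3-FOXO1 (12.4%, against 25.1%) stood at 71.3 and 72.4 with vector and 52.9 and 55.5 with the fusion. In RH30 they stood at 73.9 and 76.1 in DMSO, 80.4 and 71.8 in QC6352 and 67.9 to 72.4 in the hairpin libraries, all above the fusion level. The RH30 mean was nearer to the fusion level in 1002 of them (34.4%). The 16963 members in neither set stood at 81.4 to 85.8 in RH30. Members picked for a low value in 1 group of libraries tend to stand higher in any other, so the nearness of RH30 to 1 side is partly set by the sorting. It is also partly set by the rule, which left out every site without a peak in an RH30 list. Relative to the members in neither set, the higher set lay from 9.73 points below to 5.11 above in RH30 and the lower set from 4.05 to 13.6 below.

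**Figure D4:**
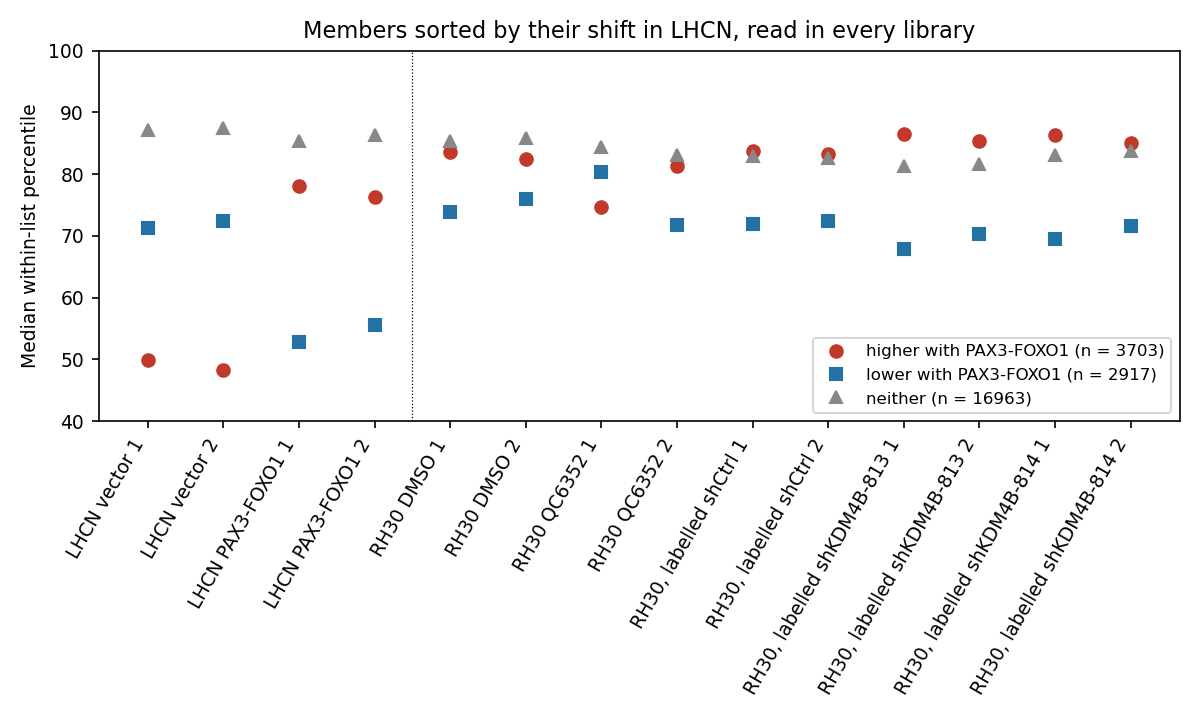
Median within-list percentile (y axis, from 40 to 100) of 3 sets of members in each of the 14 libraries (x axis). Red circles are the 3703 members higher with PAX3-FOXO1 in LHCN, blue squares the 2917 lower and grey triangles the 16963 in neither. The dotted line parts LHCN, which set the classes, from RH30, where red circles lay at 74.7 to 86.5 and blue squares at 67.9 to 80.4.

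The higher set also had its own values with QC6352. Its median shift against DMSO was -4.75 points, with 1137 members lower (30.7%) and 477 higher (12.9%) by 10 points or more without overlap, against 21% and 17.7% of all regions tested. In the members of neither set the median shift was -2.45 points, with 19.4% lower and 9.43% higher, and in the lower set it was 0.004 points. This order rested on QC6352 1. Without that library the higher set shifted less than the members in neither set, by a difference of 1.07 points, and the lower set more, by -0.81.

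Shifts of the members were not even along the genome. With PAX3-FOXO1 both libraries lay below both vector libraries on chromosomes 22 (median shift -5.73), 19 (-4.67), 17 (-3.19) and 7 (-2.01). On 10 chromosomes both library medians lay above, as on chromosome 8 (87.2 and 88.3 against 84.99 and 84.6). The median shift per member on those 10 ran from -0.78 (chromosome 1) to 0.80 (chromosome 8) and was below 0 on chromosomes 1, 3, 10 and 13. On chromosome 22 the member medians were 72.5 and 74.6 with vector and 66.6 and 69.2 with the fusion, and 76.7% of the 459 members were lower. All regions tested there moved in the same direction, with median shifts of -8.02, -6.79, -4.63 and -4.98 on those chromosomes.

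In labelled shKDM4B-813 against labelled shCtrl the lowest medians were on chromosomes 19 (-8.45), 22 (-6.63), 16 (-5.27) and 17 (-4.46). On chromosome 19 members stood at 77.1 and 77.5 in labelled shCtrl and at 64.0 and 69.3 in labelled shKDM4B-813. All regions tested there had medians of -9.13, -7.98, -5.88 and -5.55. Its libraries lay above the control on 10 chromosomes and below it on 8. Labelled shKDM4B-814 lay above the same control on 16 chromosomes and below it on 5. The lowest were 22 (-3.84), 19 (-2.82) and 17 (-2.24), where all regions had -6.54, -5.07 and -5.80, and the highest was 18 (4.67, against 4.87 over all regions). By the peak names, sh814 against shCtrl was lowest on chromosomes 19 (-5.50) and 16 (-4.25), and sh813 against shCtrl has the values of labelled shKDM4B-814 with the sign turned. With QC6352 the lowest were chromosomes X (-9.57), 18 (-6.80) and 8 (-6.44), with medians over all regions of -8.42, -5.84 and -5.82. Members on X stood at 84.9 and 83.4 in DMSO and 71.9 and 77.5 in QC6352.

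On chromosomes 19 and 22 the QC6352 replicates lay on either side of the DMSO pair. They stood at 87.2 and 70.0 on chromosome 19, with DMSO at 74.4 and 79.3, and at 88.1 and 71.6 on chromosome 22, with DMSO at 80.0 and 84.0.

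**Figure D5:**
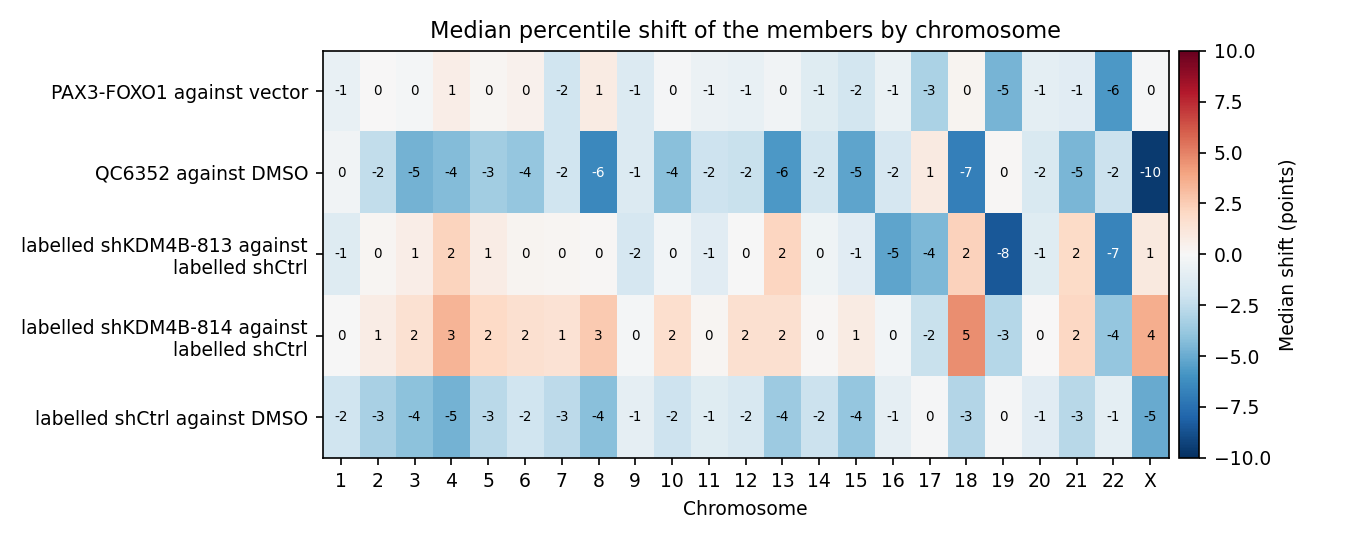
Median shift of the members in within-list percentile (colour and rounded number, points, first group less second) for each chromosome (x axis) in 5 comparisons (y axis). Blue marks a negative and red a positive shift. Chromosomes 17, 19 and 22 were lowest with PAX3-FOXO1, and in QC6352 the lowest was X (-9.57).

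Some members passed the rule only just. The member nearest the cut by rank was chr17:18120724-18121508, at rank 93485 of 93488 in vector 1, with a median percentile of 66.9 in the other 13 libraries. Inside as well were chr22:39705575-39707447 at rank 93474 in labelled shKDM4B-814 1 and chr1:94511036-94511602 at 93454 in labelled shCtrl 1. Just outside lay chr17:36732389-36737132, rank 93501 in vector 1, and chr17:54707075-54707556, rank 93502 in QC6352 2. In all, 159 members had a library in its last 1000 ranks.

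Of the 5465 regions with a peak in 13 libraries, 2674 had a weaker peak in the deposited list of the 14th. The missing library was labelled shCtrl 1 for 1128 of them and labelled shCtrl 2 for 1167, QC6352 1 for 705 and QC6352 2 for 615, and a DMSO library for only 44 and 90. Which libraries took part therefore set how many regions counted as open in all. Without the 6 hairpin libraries 30660 regions had a peak in the remaining 8.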

How the data were processed

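Per the submitters' processing notes, build hg19 was used with MACS2 2.1.1, SAMtools 1.3.1, Picard 1.65 and BWA 0.7.12-r1039. The sources used here give no settings and no Tn5 shift. The authors deposited 1 peak list per library with a score (not used), a fold ratio over background and −log10 p and −log10 q per peak, plus the summit offset. Lists were trimmed to 93488 peaks by −log10 q (ties by fold and by position) and merged. Ranking by fold gave the same trimmed lists. Percentiles were compared with limma 3.58.1 (R 4.3.3, trend, Benjamini-Hochberg adjustment over all regions with a peak in the 4 libraries), without a replicate block, and on log2 rank as an alternative. The limma fit was tested on simulated data and recovered the size of seeded shifts. In RH30 it called none of the smaller ones, which were at least as large as most member shifts seen there. It called only part of the larger ones, so a count of 0 is no sign of equal levels. The simulated spread and shift sizes were revised after a first version failed its check. Regions printed were the 10 strongest members, the 5 widest, the 5 with most peaks, the 5 with the largest shift per comparison and direction, and those nearest the edge of the trimmed lists, some of them by range only. Members and lists were chosen with earlier results of these data known. The planned gene, marker and sequence lists were not run, since no annotation or genome of hg19 was used here. The differences between replicates 1 and 2 were only weakly correlated between groups over members, from -0.18 with QC6352 to 0.09 with PAX3-FOXO1. The classes of members by their shift in LHCN, the groups by peak names and the lists without hairpin libraries were chosen after seeing the data. Python 3.11.15 was used for the rest.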

Additional observations from a re-analysis of the deposited data

How the results depend on the processing

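The number of members was 13604 with the 50000 strongest peaks and 6197 where peaks had to cover 50% of the region. It was 29905 with lists as deposited, 17466 at a −log10 q of 10 or more, 22326 with fixed summit windows and 23640 to 24758 without any 1 library. With 50000 peaks the share with 2 or more peaks in at least 8 libraries was 5.86%. Those lists gave 1851 rises and 1716 falls with PAX3-FOXO1, and median shifts of -1.08 with PAX3-FOXO1, -4.03 with QC6352, -1.17 in labelled shKDM4B-813 and -2.63 for labelled shCtrl against DMSO. Fewer regions were tested there, and no share over all regions is given for these counts.

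Calls on log2 rank were 248 and 390 (rises and falls) for QC6352, 1783 and 1324 for labelled shKDM4B-813, 164 and 58 for labelled shKDM4B-814 and 497 and 1233 for labelled shCtrl against DMSO. With groups by peak names they were 58 and 164 for sh813, 827 and 1027 for sh814 and 1114 and 1496 for shCtrl against DMSO, with median shifts of -1.17 for sh814 and -1.49 for shCtrl against DMSO. A single fit over all RH30 libraries gave 536 and 1623 for QC6352, 302 and 193 for labelled shKDM4B-813 and 34 and 22 for labelled shCtrl against DMSO. No share over all regions is given for the single fit. The cause of these differences was not tested.

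With the replicate number as a block, rises and falls were 42 and 75 for QC6352, 1210 and 787 for labelled shKDM4B-813, 355 and 656 for labelled shCtrl against DMSO, and 4494 and 4549 for PAX3-FOXO1. The correlation of same-numbered deviations was 0.09 with PAX3-FOXO1, -0.18 with QC6352 and 0.03 to 0.05 in the others. Libraries of the same number thus deviated together weakly at most, and with QC6352 in opposite directions. Crossed pairing of the QC6352 numbers gave 621 and 1430. No share over all regions is given for the block counts.

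Without each library in turn, PAX3-FOXO1 had 2325 to 4485 rises and 516 to 5419 falls (median shift -0.94 to -0.24), and QC6352 had 17 to 1482 and 0 to 4626 (-2.70 to -1.15). Labelled shKDM4B-813 had 0 to 1035 and 0 to 36 (-0.86 to -0.22), labelled shKDM4B-814 had 0 to 299 and 0 to 0 (0.16 to 1.03), and labelled shCtrl against DMSO had 0 to 118 and 0 to 704 (-2.41 to -1.53). A lone library was assumed to vary like the other group. The QC6352 shift of the members higher with PAX3-FOXO1, less that of the members in neither set, ran from -4.83 to 1.07, and that of the lower set from -0.81 to 5.80. With classes by the limma call the latter was -0.017. Of 237 alternative values of these counts, medians and differences, 165 stayed within the limit set for a move, 69 moved and 3 turned in sign. Some of the 165 could not move, so the tally is no measure of stability. Ranking by fold gave the same lists, and a block or a single fit leaves a median shift as it is. Settings with no calls in either case also counted as unmoved. Depth is unknown, and percentiles do not show absolute gain or loss.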
